A study of Mus musculus with 36 samples.

Results

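The 24 arrays described here, of 36 in the series, hold alveolar macrophages that had been transferred into the airways of another mouse and alveolar macrophages that had not. They were chosen by their titles: 16 arrays of 4 groups of macrophages that descended from transferred cells, and 8 arrays of 2 groups taken straight from wild-type lungs. Each group held 4 arrays, called biological replicates in the labels, and the mean of the 4 transferred groups was set against the mean of the 2 untransferred groups. Donors were wild-type C57BL/6 mice whose blood cells carry both CD45.1 and CD45.2, which told donor cells from recipient cells in the sort. The transferred cells were bone marrow monocytes of adult mice aged 6 to 12 weeks, fetal liver monocytes of E15.5, yolk sac macrophages of E12.5, or alveolar macrophages from lavage of adult mice of 6 to 12 weeks. All were given through the nose to newborn Csf2rb-/- mice, and macrophages of donor type were sorted from lavage 6 weeks later. They are called BM-, FL-, YS- and AM-derived below. The untransferred groups were alveolar macrophages of adult wild-type mice of 6 to 12 weeks, from the same kind of lavage that supplied the transferred alveolar macrophages, and alveolar macrophages of wild-type mice aged 6 weeks. Transferred and untransferred cells therefore differed in several respects at once: the transferred cells had passed a first sort and an instillation, had lived in a Csf2rb-/- lung, and in 3 of 4 groups had begun as another cell type. The contributions of these cannot be told apart. How many mice supplied a sample, and whether mice were pooled, is not given in the sources used here.

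Alveolar macrophages are the resident phagocytes of the air spaces. They clear inhaled particles, dying cells and the lipid-rich surfactant that lines the alveoli, and their development depends on GM-CSF, which acts through the receptor chain Csf2rb and the transcription factor Pparg. Mice without Csf2rb lack functional alveolar macrophages and accumulate surfactant, so wild-type cells placed in their airways enter a niche that is largely unoccupied.

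Values are log2 RMA values, which measure the brightness of a gene's probe set after background correction and normalisation across arrays. Differences are log2 differences ± standard error (SE) between group means, transferred minus untransferred. Folds are 2 to the power of the difference. If the lower of 2 means was below 4.62, the median of the table, this median took its place and the fold is given as "at least". Array medians ranged from 4.55 to 4.68. Across genes, arrays correlated with the others of their group at 0.967 to 0.979 on average, and only 6 of 24 arrays correlated best with their own group. No pair of arrays was identical.

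In a principal component analysis of the 24 arrays, the second component (12.2% of the variance) separated transferred from untransferred cells. The 16 transferred arrays scored at most 0.67 on it and the 8 untransferred arrays at least 9.32. The first component (14.3%) did not follow the groups: adult replicate 4, the array with the lowest correlation to its own group, stood at 30.61 and AM-derived replicate 4 at 26.10. In the 6-week group, replicates 1 and 4 had Xist, the RNA that silences an X chromosome, at 4.31 and 3.73 with high Eif2s3y, a gene of the Y chromosome. Replicates 2 and 3 had the reverse, with Eif2s3y at 2.65 and 2.85. The other 20 arrays carried both, with Xist at 6.37 or above and Eif2s3y at 5.56 or above. The 6-week group thus differed in this respect from every other group, the adult untransferred group included. What this means for the make-up of the samples was not tested. None of 4 sex-linked genes tested passed the threshold between transferred and untransferred cells (median difference 0.420).

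**Figure D1:**
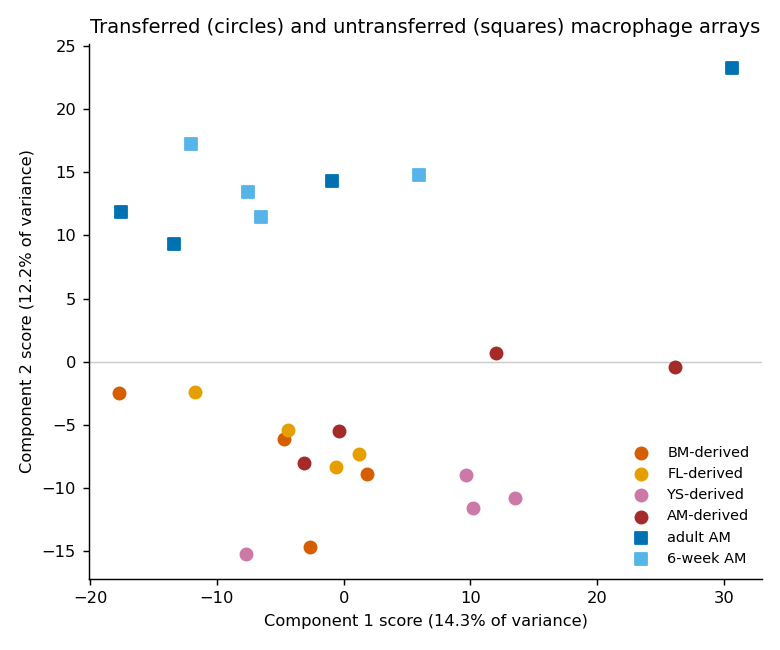
Scores of the 24 arrays on the first component (x axis, 14.3% of the variance) and the second (y axis, 12.2%), transferred groups as circles and untransferred groups as squares. All squares lie at 9.32 or higher on the second component and all circles at 0.67 or lower, while 1 adult and 1 AM-derived array stand apart on the first.

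The label "alveolar macrophage" was read beside markers of that cell, from a list chosen with earlier results of these data known. All 34 identity genes on the array had means above the table median in both the transferred and the untransferred cells. That is a low bar, as 82.3% of all genes tested were above it in all 3 donor populations before transfer. Pparg was too, at 5.50 in bone marrow monocytes, 7.85 in fetal liver monocytes and 6.61 in yolk sac macrophages, while Car4 was under it at 4.15, 4.10 and 3.79. The summed log2 level of the 34 genes ranged from 340.7 to 353.0 over transferred arrays and from 343.5 to 352.4 over untransferred ones. Pparg, the factor that directs alveolar macrophage differentiation, ranged from 9.83 to 10.49 (median 10.16) in transferred arrays and from 10.09 to 10.53 (median 10.28) in untransferred arrays. Its difference of -0.14 ± 0.09 did not pass the threshold (adjusted p = 0.675). Csf2rb, intact in the donors, differed by -0.01 ± 0.12 (adjusted p = 0.993), and Csf2ra, its partner chain, by 0.07 ± 0.11. Car4 (a membrane carbonic anhydrase, 0.23 ± 0.09), Fabp4 (a fatty acid carrier, -0.02 ± 0.13), Marco (a scavenger receptor, 0.20 ± 0.11), Itgax (the integrin CD11c, -0.12 ± 0.12) and Chil3 (a chitinase-like protein, 0.04 ± 0.08) did not pass either. Siglecf, a sialic acid receptor used to define these cells, was 1.54-fold lower in transferred cells. Its values ran from 8.49 to 9.53 (median 8.995) against 9.36 to 9.79 (median 9.70), and 12 of 16 transferred arrays lay below every untransferred one (difference -0.62 ± 0.12, adjusted p = 0.000605).

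Of 12244 genes tested, 346 were called (2.83%), meaning that they differed between transferred and untransferred cells at an adjusted p under 0.05 by limma: 198 were higher (1.62%) and 148 lower (1.21%) after transfer. At least 2-fold differences numbered 56 higher (0.457%) and 25 lower (0.204%), and the median size of a called difference was 0.651. In 179 of the 198 higher genes all 4 transferred group means lay above both untransferred means, and in 126 of the 148 lower genes all 4 lay below both. A stricter class, called separated here, holds called genes in which all 16 transferred arrays lay beyond all 8 untransferred arrays: 26 were higher (0.212%) and 11 lower (0.0898%). The test above counts arrays. When the 6 group means were taken as the units instead, so that the spread between groups set the error, 75 genes were called (52 higher, 23 lower). Of these, 71 were among the 346, and 29 of the 37 separated genes kept the call. Described genes that lost it in that fit are named, some of them in a later paragraph.

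The gene with the largest separated rise was AA467197, a small protein-coding gene also known as Nmes1, described here because of its values. Transferred arrays ranged from 7.23 to 9.88 (median 8.98) and untransferred arrays from 4.41 to 7.06 (median 5.67). The lowest transferred array thus stood just above the highest untransferred one, while the medians lay far apart, and the difference of means was 9-fold (3.17 ± 0.28, adjusted p = 1.02e-09). AM-derived cells had the highest group mean (9.39 ± 0.19 SD, n = 4) and FL-derived cells the lowest (8.07 ± 0.68).

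Among receptors and bridging proteins for dying cells and modified lipids, Mfge8 and Msr1 differed most. Mfge8, a secreted protein that bridges dying cells to phagocyte integrins, ran from 7.15 to 9.03 (median 8.11) in transferred arrays and from 5.35 to 6.03 (median 5.41) in untransferred ones. There was no overlap, and the difference was 6.04-fold (2.59 ± 0.16, adjusted p = 1.88e-13). Msr1, a class A scavenger receptor for modified lipoproteins, ran from 7.70 to 8.95 (median 8.41) against 6.43 to 7.27 (median 6.56), again without overlap, a 3.46-fold difference (1.79 ± 0.10, adjusted p = 2.76e-14). Trem2, a lipid-sensing receptor of tissue macrophages, was 1.90-fold higher and separated, with 7.79 to 8.70 (median 8.39) against 7.12 to 7.75 (median 7.32). The difference of 0.93 ± 0.10 had an adjusted p of 5.73e-08. Cd300a, an inhibitory receptor that binds the same exposed lipid as Mfge8, was 1.30-fold higher (0.38 ± 0.09, adjusted p = 0.00703). It lost its call with group means as units, without the YS-derived group, and with the adult group as the only reference. In the list of scavenger and efferocytosis receptors, 3 of 24 members tested were higher (Msr1, Mfge8 and Cd300a), none was lower, and the list's median was 0.024, beside -0.005 over all genes tested. Of all genes tested, 1.62% were higher and 1.21% lower.

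Genes of lipid handling differed one by one rather than as lists. Awat1, an acyltransferase that makes wax esters from fatty alcohols, ran from 5.98 to 8.73 (median 7.52) in transferred arrays and from 3.98 to 5.12 (median 4.43) in untransferred arrays. Untransferred cells were near or below the table median throughout, and every transferred array was above them, at least 6.84-fold on the means (2.98 ± 0.23, adjusted p = 3.04e-11). Scd1, the desaturase that makes monounsaturated fatty acids, was 6.31-fold higher (2.66 ± 0.23, adjusted p = 5.60e-10): 7.26 to 10.01 (median 8.93) against 4.68 to 7.44 (median 6.47). In 15 of 16 transferred arrays it exceeded every untransferred array. Among the untransferred cells Scd1 lay at 6.99 ± 0.31 (SD, n = 4) in the adult group and 5.33 ± 0.66 in the 6-week group. Scd2, its relative, was 1.87-fold higher (0.90 ± 0.19, adjusted p = 0.00236), and Elovl6, which lengthens saturated fatty acids, was lower (-0.59 ± 0.13, adjusted p = 0.00559).

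Of 31 tested members of the sterol and fatty acid synthesis list 2 were higher and 1 lower, beside 1.62% and 1.21% of all genes tested. The remaining 28 did not pass, and the list's median was -0.035. Among them were Srebf1 (0.23) and Srebf2 (-0.01), which drive these pathways, Fasn (-0.02), the fatty acid synthase, and Hmgcs1 (-0.23) and Sqle (-0.42) of cholesterol synthesis. Ch25h, which makes an oxysterol from cholesterol, was separated and 2.56-fold higher, with 9.19 to 10.05 (median 9.72) against 7.77 to 8.90 (median 8.37), a difference of 1.35 ± 0.15 (adjusted p = 6.14e-08). Lpcat2, which makes platelet-activating factor and reacylates phospholipids, was separated and 3.11-fold higher, with 7.16 to 8.69 (median 7.80) against 5.58 to 6.46 (median 6.29). Scd2 and Elovl6 lost their calls with group means as units and with the adult group as the only reference, and Elovl6 also with the 6-week group alone.

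In the list of lipid uptake, storage and efflux, 3 of 30 tested members were higher and 1 lower (median -0.001), beside 1.62% and 1.21% of all genes. Besides Msr1 these were Abca1, the cholesterol exporter (1.57-fold, 0.65 ± 0.12, adjusted p = 0.000454), Plin1, a coat protein of lipid droplets (1.26-fold, 0.33 ± 0.07, adjusted p = 0.0034), and, lower, Cidec, which fuses lipid droplets. Cidec was separated: all 16 transferred arrays, from 9.28 to 10.50 (median 10.07), lay below all 8 untransferred arrays, from 10.59 to 11.07 (median 10.81), a 1.78-fold difference (-0.83 ± 0.15, adjusted p = 0.000451). Abcg2, an exporter of drugs and porphyrins, was separated and 2.10-fold higher (1.07 ± 0.12). Of 31 fatty acid oxidation genes 2 were higher and none lower (median 0.055). They were Pdk4, a kinase that holds back pyruvate oxidation (2.65-fold, 1.41 ± 0.19, adjusted p = 5.34e-06), and Slc27a1, a fatty acid transporter (2.22-fold, 1.15 ± 0.12, adjusted p = 4.08e-08). Abca1, Plin1, Cidec, Abcg2, Pdk4 and Slc27a1 all lost their calls with group means as units, and Abca1 and Plin1 also with the adult group as the only reference.

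**Figure D2:**
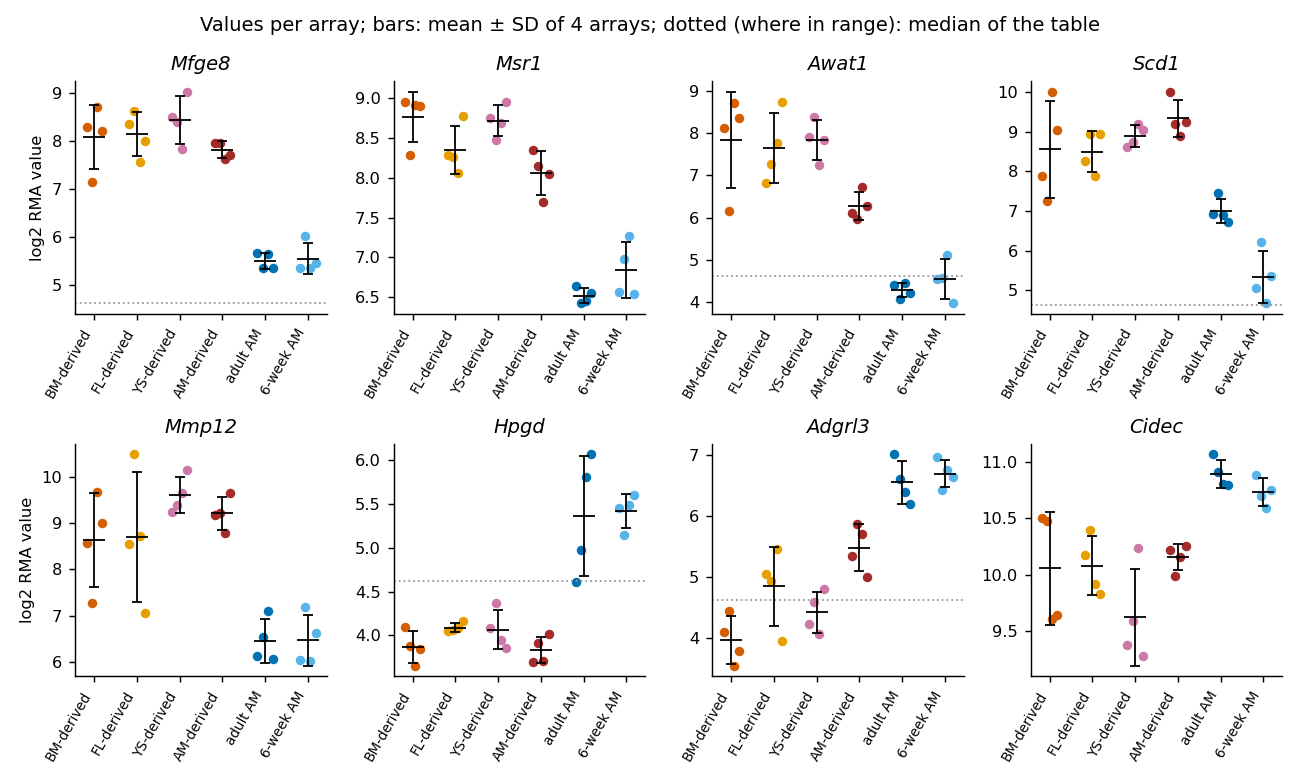
Values of 8 genes in each array (y axes, log2 RMA value) for the 4 transferred and 2 untransferred groups; bars are means ± SD of 4 arrays, and the dotted line, drawn where it is in range, is the table median. Mfge8, Msr1 and Awat1 are higher and Hpgd, Adgrl3 and Cidec lower in all 16 transferred arrays than in all 8 untransferred arrays, while Scd1 and Mmp12 exceed every untransferred array in 15 of 16.

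Genes for matrix, proteases and growth factors gave 3 higher and 2 lower calls among 27 tested (median -0.002), and genes of activated lung macrophages and injury 5 higher and 2 lower among 27 (median 0.063). Over all genes tested, 1.62% were higher and 1.21% lower. The lists share Mmp12, Igf1, Fn1 and Timp2, and the second also holds Trem2, Ctsk and Gpnmb. Mmp12, the macrophage elastase, ran from 7.05 to 10.50 (median 9.21) in transferred arrays and from 6.02 to 7.18 (median 6.33) in untransferred arrays. A single FL-derived array, replicate 4 at the lowest of these values, overlapped the untransferred range, and the difference was 6.02-fold (2.59 ± 0.28, adjusted p = 9.25e-08). Igf1, the insulin-like growth factor, was 2.52-fold higher (1.33 ± 0.16, adjusted p = 4.93e-07), with 7.06 to 8.71 (median 8.20) against 6.07 to 7.26 (median 6.84). Ctsk, a lysosomal collagen-degrading protease, was separated and 1.49-fold higher (0.58 ± 0.12), and Gpnmb, a glycoprotein of phagosomes, was 1.56-fold higher (0.64 ± 0.14). These were also the 2 higher genes among 39 of lysosome and lipid breakdown (median -0.002), and both lost their calls with the adult group as the only reference.

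Mmp2, a gelatinase, was at least 1.23-fold higher (0.48 ± 0.12, adjusted p = 0.0162), but lost its call in 6 of 16 alternative settings, group means as units among them. Fn1, the matrix protein fibronectin, was 3.83-fold lower (-1.94 ± 0.24, adjusted p = 1.02e-06), with a wide range of 5.82 to 10.89 (median 7.94) against 8.81 to 10.47 (median 10.14). The untransferred arrays were all high, and the transferred arrays spread from far below them to above them. Fn1 lost its call with group means as units. Tgfb2, a TGF-beta ligand, was separated and at least 1.26-fold lower (-0.72 ± 0.09), at 3.98 to 4.48 (median 4.28) against 4.55 to 5.35 (median 4.99), dim in both. Cdh1, the adhesion protein E-cadherin, was 1.87-fold higher (0.90 ± 0.12, adjusted p = 1.57e-06) and the only call among 21 genes of alternative activation (median 0.092). In the list of interstitial and fetal tissue macrophage markers Trem2 and Hpgds were higher and none was lower among 30 (median -0.016). Of all genes tested, 1.62% were higher and 1.21% lower.

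Hpgd, which inactivates prostaglandins, was separated and at least 1.71-fold lower: 3.65 to 4.37 (median 3.98) in transferred arrays, all under the table median, against 4.62 to 6.07 (median 5.48), a difference of -1.43 ± 0.13 (adjusted p = 3.34e-09). Hpgds, which makes prostaglandin D, was 1.81-fold higher (0.86 ± 0.17, adjusted p = 0.000988), with overlapping ranges of 4.81 to 6.31 and 4.03 to 5.46. It lost its call with the 6-week group as the only reference. Cyp4f18, a hydroxylase that inactivates leukotriene B4, was separated and 1.64-fold lower (-0.72 ± 0.09, adjusted p = 7.06e-07), and it lost its call with group means as units. Before transfer, Hpgd stood at 9.5 in bone marrow monocytes, 7.7 in fetal liver monocytes and 9.9 in yolk sac macrophages, far above its level in any of the 6 macrophage groups.

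Interferon response genes were higher in 6 of 38 tested members and lower in none, where 1.62% of all genes were higher. The list's median difference was 0.288 and 35 of 38 members lay above 0. The 6 were Oas1a, Oas2 and Oasl2, which belong to the oligoadenylate synthetase family that senses viral RNA, Irf7, the transcription factor that amplifies interferon production, Rtp4, an interferon-induced inhibitor of viruses, and Dhx58, a regulator of RNA sensing. Oas1a ran from 7.14 to 8.47 (median 8.10) against 6.33 to 7.37 (median 6.90), with 12 of 16 transferred arrays above every untransferred one (1.99-fold, 0.99 ± 0.16, adjusted p = 6.83e-05). Oasl2 was 1.93-fold higher (0.95 ± 0.19, adjusted p = 0.00135), at 4.89 to 7.01 (median 5.69) against 4.53 to 4.97, and only 1 transferred array fell within the untransferred range. Oas2 was at least 1.61-fold higher (0.96 ± 0.19), Irf7 1.84-fold (0.88 ± 0.16) and Rtp4 2.60-fold (1.38 ± 0.28).

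Rtp4 was tight in untransferred arrays (5.84 to 6.37) and wide in transferred arrays (5.49 to 8.76). Arrays at 6.04 in the BM-derived, 5.49 in the FL-derived and 6.10 in the AM-derived group were no higher than the untransferred range. Most other members, such as Ifit1 (0.45 ± 0.20), Ifit3 (0.40 ± 0.29), Oas3 (0.56 ± 0.16, adjusted p = 0.0566), Usp18 (0.32 ± 0.14) and Mx2 (0.14 ± 0.11), did not pass. With the adult group as the only reference 3 members were called and with the 6-week group alone 5, and the median stayed between 0.237 and 0.337 over the alternative settings, the scalings included. Irf7 lost its call with group means as units and with the adult group alone, Rtp4 with the adult group alone, and Oas2 with the 6-week group alone. Dhx58 (0.49 ± 0.14) lost its call in 9 of 17 settings, group means as units among them. Slfn8, a schlafen gene outside the list, was separated and 2.27-fold higher, at 5.35 to 6.76 (median 5.94) against 4.19 to 5.28 (median 4.76).

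Of 13 genes of MHC class II presentation none was called, and 3 lay above 0 (median -0.208). H2-Aa (-0.78 ± 0.27) and H2-Ab1 (-0.75 ± 0.25), the chains of the I-A molecule, had the lowest values, with adjusted p of 0.169 and 0.126. Without the BM-derived group 5 members were called lower, and without the AM-derived group 4. With the adult group as the only reference 3 were called lower, and with the 6-week group alone 1 was called higher.

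Promoters of genes that were higher after transfer were searched for short motifs on both strands, in RefSeq windows of GRCm38.p6 that reach from 250 bases before to 50 after a transcript start. The AP-1 motif TGANTCA occurred in 25 of the 155 higher genes with a window (16.1%), in 12 of 124 lower genes (9.68%) and in 6.4% of 9816 tested genes with a window. It also occurred in 9 of 30 members of the interferon list with a window (30%), and in 0 of the 3 called members with a window. The interferon motif, GAAA and GAAA with any 2 bases between them, occurred in 14 of 30 members of the interferon list with a window (46.7%). It occurred in 1 of the 3 called members with a window. Among the 155 higher genes 8 held it (5.16%), among the 124 lower genes 6 (4.84%), and 3.65% of all. The sterol motif TCACNCCAC was found in 0.645% of the higher and 2.42% of the lower genes beside 1.47% of all. For the E-box TCANGTGA the shares were 2.58% and 7.26% beside 4.86%. The Pparg motif (AGGTCA, any base, AGGTCA) was found in no higher or lower gene, beside 0.0306% of all. A match describes the letters of a window and is no evidence of binding. The windows below are shown because they belong to higher genes described here; each is written 5′ to 3′ on the gene's strand, with the motif in capitals. AA467197 (chr2:122637637-122637936, + strand), Mmp12 (chr9:7347124-7347423, + strand) and Trem2 (chr17:48346151-48346450, + strand) hold the AP-1 motif, starting at positions -73, -44 and -9 from the transcript start.
AA467197: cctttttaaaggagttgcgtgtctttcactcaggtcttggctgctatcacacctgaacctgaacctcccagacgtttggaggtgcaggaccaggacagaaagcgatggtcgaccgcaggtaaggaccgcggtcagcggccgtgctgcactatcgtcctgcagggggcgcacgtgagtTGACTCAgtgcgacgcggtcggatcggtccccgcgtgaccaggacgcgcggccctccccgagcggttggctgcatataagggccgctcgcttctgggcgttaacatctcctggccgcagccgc
Mmp12: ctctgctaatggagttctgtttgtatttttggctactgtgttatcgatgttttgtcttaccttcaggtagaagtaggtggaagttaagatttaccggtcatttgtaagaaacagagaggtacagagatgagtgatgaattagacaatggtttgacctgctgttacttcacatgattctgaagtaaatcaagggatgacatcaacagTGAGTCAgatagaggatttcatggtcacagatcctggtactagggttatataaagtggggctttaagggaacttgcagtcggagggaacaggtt
Trem2: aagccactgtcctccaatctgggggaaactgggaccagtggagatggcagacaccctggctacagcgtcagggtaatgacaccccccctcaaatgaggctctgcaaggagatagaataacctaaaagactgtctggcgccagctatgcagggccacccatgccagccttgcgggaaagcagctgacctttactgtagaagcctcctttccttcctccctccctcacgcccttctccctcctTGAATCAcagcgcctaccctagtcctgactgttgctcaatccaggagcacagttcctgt

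Oas1a (chr5:120907476-120907775, - strand) holds the interferon motif at -20 and, overlapping it, at -14, and Slfn8 (chr11:83020761-83021060, - strand) holds it at -48 on the opposite strand. Both genes were higher after transfer.
Oas1a: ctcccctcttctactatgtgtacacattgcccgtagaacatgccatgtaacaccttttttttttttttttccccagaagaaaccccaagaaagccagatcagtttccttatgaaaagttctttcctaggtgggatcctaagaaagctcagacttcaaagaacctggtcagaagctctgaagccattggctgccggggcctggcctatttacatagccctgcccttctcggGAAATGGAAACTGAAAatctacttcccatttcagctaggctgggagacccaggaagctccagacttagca
Slfn8: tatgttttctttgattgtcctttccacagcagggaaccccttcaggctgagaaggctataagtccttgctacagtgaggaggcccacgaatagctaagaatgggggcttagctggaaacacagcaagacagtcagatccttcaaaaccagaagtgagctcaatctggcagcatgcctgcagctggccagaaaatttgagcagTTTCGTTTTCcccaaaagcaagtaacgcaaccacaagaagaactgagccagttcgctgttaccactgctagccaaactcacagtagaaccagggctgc

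Other separated genes that were higher served varied roles. Myo5a, a motor that carries organelles along actin, was 2.59-fold higher, at 6.35 to 7.78 (median 7.05) against 4.67 to 6.30 (median 5.74). Mlph, the adaptor that links Rab27a-coated organelles to that motor, was 2.26-fold higher, at 5.84 to 7.10 (median 6.58) against 5.15 to 5.55 (median 5.31). The lowest transferred array stood just above the highest untransferred one for Myo5a and clear of it for Mlph. Syngr1, a membrane protein of small vesicles, was 2.22-fold higher (1.15 ± 0.12), but lost its call with group means as units. Rgcc, a regulator of the cell cycle, was 2.62-fold higher, at 7.75 to 9.21 (median 8.53) against 6.79 to 7.39 (median 7.01).

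Car13, a cytosolic carbonic anhydrase, was 2.82-fold higher, at 6.53 to 7.81 (median 7.06) against 4.68 to 6.15 (median 5.77). Fam20c, a kinase of secreted proteins, was 2.92-fold higher (1.55 ± 0.18), and Gask1b, a related protein of the Golgi, at least 1.88-fold (1.22 ± 0.09). Gask1b was below or near the table median in the untransferred arrays (4.01 to 4.82) and above it in every transferred array (5.03 to 5.93). Stra6l, a receptor for retinol-binding protein, was 2.03-fold higher (1.02 ± 0.10). Among genes described after their values were seen, Plpp3, a lipid phosphate phosphatase (1.67 ± 0.20), Epas1, the transcription factor HIF-2alpha (1.30 ± 0.16), and Anpep, a surface aminopeptidase (1.78 ± 0.21), were also called. In each of these 3 genes, 15 of 16 transferred arrays exceeded every untransferred array.

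The lower separated genes were led by Adgrl3, an adhesion receptor of the latrophilin family. It ran from 3.54 to 5.87 (median 4.69) in transferred arrays and from 6.20 to 7.01 (median 6.61) in untransferred arrays, a 3.85-fold difference (-1.95 ± 0.15, adjusted p = 3.04e-11). Mllt3, a chromatin reader that works with transcription elongation complexes, was 2.05-fold lower, at 4.92 to 6.23 (median 5.59) against 6.31 to 6.98 (median 6.61). Kdm5b, a histone demethylase, was at least 1.36-fold lower (-0.98 ± 0.12), and Zcchc3, a nucleic acid binding zinc finger protein, at least 1.31-fold (-0.89 ± 0.12); transferred means of both were under the table median. Krt80, a keratin, was separated and 1.86-fold lower (-0.89 ± 0.10), and Krt79, a keratin of the identity list, was 1.85-fold lower (-0.88 ± 0.15, adjusted p = 0.000132) with ranges that just overlapped.

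Ptp4a3, a phosphatase, was 1.70-fold lower (-0.77 ± 0.11), and St8sia4, which adds polysialic acid to surface proteins, 1.58-fold (-0.66 ± 0.09). Emb, a partner of lactate transporters named here after its values were seen, was 6.64-fold lower (-2.73 ± 0.26, adjusted p = 7.55e-09), at 4.41 to 8.90 (median 6.05) against 8.40 to 9.14 (median 8.65). Its untransferred arrays were uniformly high, and 15 of 16 transferred arrays lay below all of them. Bex3, a small adaptor protein described for the same reason, was 2.58-fold lower (-1.37 ± 0.22). Adgrl3, Krt79, St8sia4, Siglecf and Bex3 lost their calls with group means as units. In the identity list as a whole 1 of 34 members was higher (Ctsk) and 3 were lower (Krt79, Cidec and Siglecf), beside 1.62% and 1.21% of all genes tested. The other 30 did not pass, and the list's median was -0.015.

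**Figure D3:**
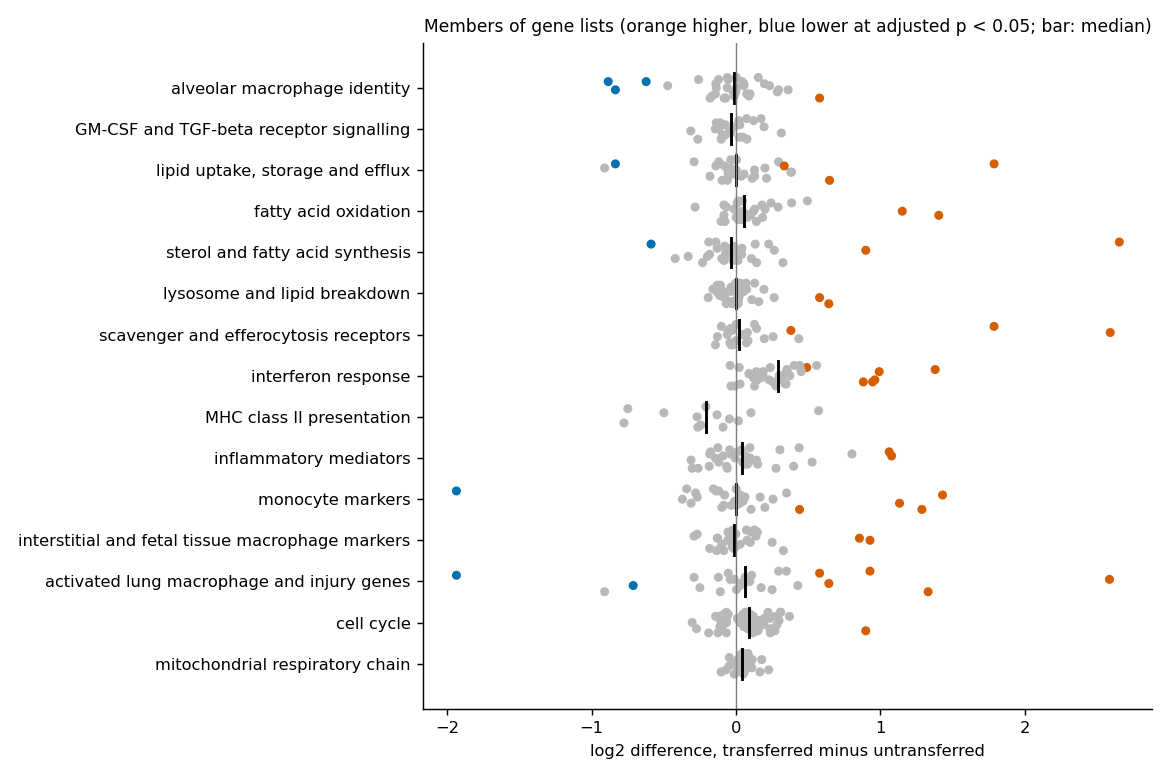
Each point is a gene of 1 of 15 lists (y axis) at its log2 difference, transferred minus untransferred (x axis); orange points were called higher, blue points lower, and bars are list medians. The medians of the lists shown lie near 0, except the interferon response (0.288) and MHC class II presentation (-0.208), and called genes stand out singly from most lists.

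Markers of other cells that a lavage or a sort could carry along were read beside these results. Of 29 monocyte markers 4 were higher and 1 lower (median 0.002), beside 1.62% and 1.21% of all genes tested. S100a6 (1.43 ± 0.28), S100a4 (1.29 ± 0.28) and S100a8 (1.13 ± 0.25), calcium-binding proteins of myeloid cells, were higher, with wide ranges such as 8.46 to 12.04 against 8.43 to 10.27 for S100a8. Ace, the angiotensin-converting enzyme, was higher by 0.44, and Fn1 was the lower one. Of the 29 markers, 20 had means above the table median in transferred cells and 20 in untransferred cells. In both, 9 were under it, Plac8, Vcan, Itgam and Ifitm6 among them. The summed level of the list ranged from 193.7 to 204.4 in transferred arrays and from 194.2 to 202.2 in untransferred ones. S100a4, S100a6 and S100a8 lost their calls with group means as units and with the adult group as the only reference, and Ace with group means as units.

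The counts of this paragraph stand beside 1.62% higher and 1.21% lower among all genes tested. Among 17 neutrophil markers Cxcr2, a chemokine receptor, was 2.53-fold higher (1.34 ± 0.25, adjusted p = 0.000467), S100a8 was higher and Csf3r, the G-CSF receptor, lower (-0.57 ± 0.16). Csf3r lost its call in 7 of 17 settings, group means as units among them, and in 12 of 24 fits that left out 1 array. The granule genes Ly6g, Ngp, Camp, Ltf, Elane, Mpo and Retnlg, and S100a9, the partner of S100a8, had means under the table median in both groups. Of 3 eosinophil markers tested Ear6, a secreted ribonuclease, was 2.40-fold higher (1.26 ± 0.19), while Epx, Prg2, Il5ra and Ccr3 had no array above 3.90. Lung epithelium markers gave 1 higher call, Cdh1, and 2 lower calls among 16: Napsa, an aspartic protease (-1.14 ± 0.15), and Epcam, an adhesion protein (-1.12 ± 0.22). Of 27 epithelium markers on the array, 14 had means above the table median in transferred cells and 14 in untransferred cells, and 13 were under it in both. Scgb1a1 varied widely between arrays, from 3.43 to 7.28 in transferred and from 4.52 to 7.13 in untransferred ones. The summed level of these markers ranged from 123.8 to 129.8 in transferred arrays and from 126.3 to 133.4 in untransferred arrays. Napsa was not limited to epithelium in this series. It stood at 10.87 to 11.24 in bone marrow monocytes and 10.53 to 10.80 in fetal liver monocytes before transfer. In yolk sac macrophages it stood at 4.14 to 5.02, and in YS-derived cells at 4.76 to 5.75. The part of other cells in these differences was not tested beyond those levels, and in bulk samples fewer cells of a type and less RNA per cell cannot be told apart. Ear6, Napsa and Epcam lost their calls with group means as units, Ear6 also with the adult group as the only reference and Epcam without the YS-derived group.

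Further lists held calls of few members, where 2.83% of all genes tested were called (1.62% higher, 1.21% lower). Inflammatory mediators gave 2 higher calls among 34 (median 0.042), the chemokines Ccl9 (2.09-fold, 1.06 ± 0.20) and Ccl3 (2.11-fold, 1.08 ± 0.24). Of 18 complement and Fc receptor genes C2, a complement protease, and C3ar1, an anaphylatoxin receptor, were higher and Fcgr2b, the inhibitory Fc receptor, was lower (median -0.042). Of 55 cell cycle genes 1 was higher (median 0.090): Ccnd1, cyclin D1, at least 1.77-fold (0.90 ± 0.16). Tcf4, at 0.43 ± 0.12, was the single call among 35 lineage transcription factors (median 0.003), and Rps4l, at -0.64 ± 0.11, the single call among 25 cytosolic ribosomal proteins (median -0.022). All 8 of these genes lost their calls with group means as units. Ccl3, C3ar1 and Rps4l lost them also with the 6-week group as the only reference, Ccl9 and Fcgr2b with the adult group alone, and Ccl3, C2 and Fcgr2b without the YS-derived group. C3ar1 lost its call without the FL-derived group too, and Rps4l without the BM-derived group. Tcf4 did so too in 6 other settings and in 13 of 24 fits without 1 array.

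No member was called among 23 genes of GM-CSF and TGF-beta receptor signalling (median -0.036), 27 of early response (-0.097), 27 of oxidative stress (0.088), 32 of the unfolded protein response (-0.058), 26 of glycolysis and hypoxia (0.017), 32 of the respiratory chain (0.042) or 19 of iron and heme handling (0.037). The same held for 8 markers of B, T and NK cells (0.084), 13 of dendritic cells (0.047), 7 of endothelium and fibroblasts (0.020) and 5 erythroid markers (0.017).

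The contrast above pools 4 origins, so it was split into a pair of comparisons that share no array. Both came from the same fit, so they share each gene's estimate of spread and are not independent tests. AM-derived cells were set against the adult group, which is their own cell type before transfer, and the BM-, FL- and YS-derived cells together against the 6-week group, which matches the recipients in age. In the first, 86 genes were called (0.702%): 49 higher (0.4%) and 37 lower (0.302%). In the second, 227 were called (1.85%): 134 higher (1.09%) and 93 lower (0.76%). Called in both were 60 genes, all in the same direction (36 higher, 24 lower), which is 69.8% of the first list and 26.4% of the second. Of the 86 genes 83 had the same sign in the second comparison, and of the 227 genes 203 had the same sign in the first. Across all genes tested, the differences of the 2 comparisons correlated at r = 0.440.

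Genes called in both included AA467197 (3.98 in AM-derived against adult cells, 2.76 in the other comparison), Mfge8 (2.31 and 2.67), Scd1 (2.34 and 3.32), Mmp12 (2.77 and 2.52), Awat1 (1.98 and 3.22), Msr1 (1.54 and 1.77), Ch25h (1.28 and 1.34) and Pdk4 (1.98 and 1.12). On the lower side were Emb (-2.73 and -2.84), Hpgd (-1.54 and -1.42), and Adgrl3 (-1.07 and -2.29). These differences were therefore present both in cells that had been alveolar macrophages before transfer and in cells that had not. Oas1a (0.59 and 1.19), Irf7 (0.22 and 1.23) and Siglecf (-0.31 and -0.72) passed only in the second comparison. Their differences were smaller in the first comparison, which also has 4 transferred arrays rather than 12. Why they did not pass there was not tested. The first count fell to 47 without adult replicate 4 and AM-derived replicate 4, the arrays at the end of the first component, a choice made after seeing the data. The second fell to 150 without 6-week replicate 1.

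**Figure D4:**
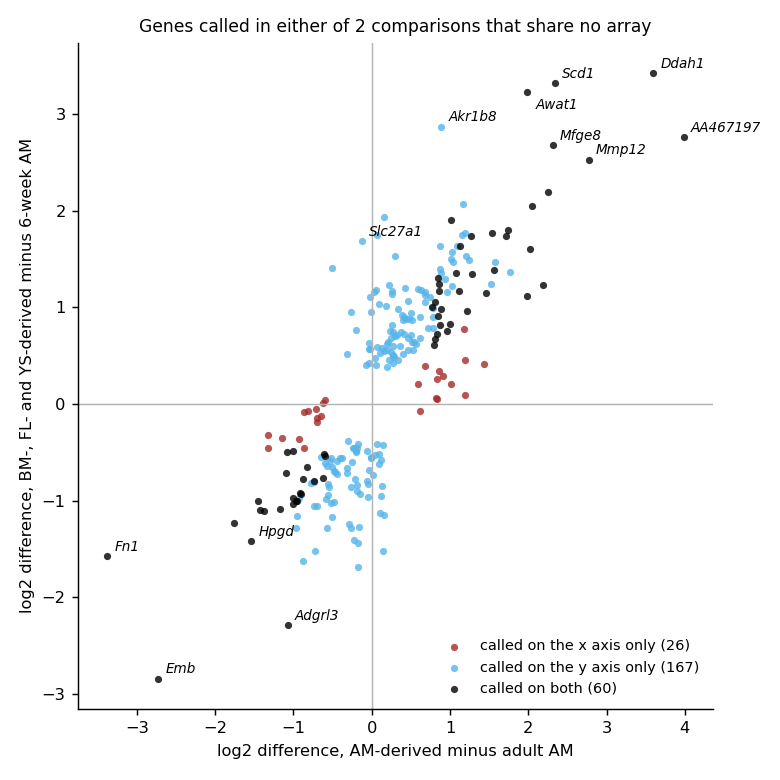
Genes called in either of 2 comparisons without shared arrays: log2 difference of AM-derived minus adult alveolar macrophages (x axis) and of BM-, FL- and YS-derived minus 6-week alveolar macrophages (y axis). The 60 genes called in both (black) lie at the lower left and upper right; 26 were called on the x axis only and 167 on the y axis only.

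The untransferred groups differed little from each other. By limma 2 genes were called between them (0.0163%), with 499 at an unadjusted p under 0.05 (4.08%). Clec1b, a C-type lectin receptor, was lower in the 6-week group by -1.83 ± 0.28 (8.18 in adult cells, 6.36 in 6-week cells), and Tmem9, a lysosomal membrane protein, stood at 4.83 there and at 5.83 in adult cells. With the 6-week group as the only reference 212 genes were called (135 higher, 77 lower), and with the adult group alone 204 (101 higher, 103 lower). Against both untransferred groups together, 224 genes were called in BM-derived cells (1.83%), 168 in FL-derived cells (1.37%), 314 in YS-derived cells (2.56%) and 165 in AM-derived cells (1.35%); these comparisons share their untransferred arrays.

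Some of the 346 genes also varied with the origin of the transferred cells. An F-test among the 4 transferred groups, which uses no untransferred array, called 149 of all genes (1.22%), 67 of the 346 (19.4%; 28 higher, 39 lower) and 8 of the 37 separated genes. Ddah1, which degrades an inhibitor of nitric oxide synthesis, had the largest difference of all called genes (3.42 ± 0.34, 10.7-fold). It stood at 10.75 ± 0.40 (SD, n = 4) in YS-derived cells, 8.58 ± 1.03 in AM-derived, 7.19 ± 2.17 in FL-derived and 6.71 ± 0.43 in BM-derived cells, against 4.98 ± 0.10 in adult and 4.79 ± 0.35 in 6-week cells. A single FL-derived array, replicate 4 at 4.16, lay below the untransferred range, and every other transferred array lay above it (F-test adjusted p = 2.65e-05). The same array was the exception for Mmp12 (7.05) and Emb (8.90). Among transferred arrays it had the lowest Rtp4 (5.49) and the highest Fn1 (10.89). Its scores on components 3 and 4 (19.24 and 20.53) were the highest of the 24 arrays, and without it 46 genes were separated rather than 37. Ddah1 lost its call with group means as units.

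Slc27a1 was higher in the BM-, FL- and YS-derived groups (7.40 ± 0.38, 7.41 ± 0.44 and 7.67 ± 0.34) and at 6.00 ± 0.32 in AM-derived cells, beside 6.13 ± 0.28 in the adult group (F-test adjusted p = 1.44e-06). Fn1 was lowest in AM-derived (6.48 ± 0.55) and BM-derived cells (7.38 ± 0.28) and higher in YS-derived (9.12 ± 0.37) and FL-derived cells (9.40 ± 1.20), with untransferred means of 9.86 ± 0.71 and 10.21 ± 0.23. Adgrl3 was lower in every transferred group but least so in AM-derived cells (5.48 ± 0.39, beside 3.96 ± 0.39 in BM-derived cells). Awat1 was likewise nearest to the untransferred level in AM-derived cells (6.27 ± 0.33) and between 7.65 and 7.84 in the other transferred groups (F-test adjusted p = 0.0276).

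Other called genes stood apart in some origins more than in others. Igf2bp3, an RNA-binding protein of fetal tissues, stood at 6.80 ± 0.22 in YS-derived and 6.61 ± 0.19 in FL-derived cells, and between 5.13 and 5.33 in the BM-derived, AM-derived and untransferred groups. Ghr, the growth hormone receptor, was above the table median only in YS-derived (5.87 ± 0.26) and FL-derived cells (4.70 ± 0.56). Wfdc10, a gene of the whey acidic protein family, was lowest in BM-derived cells (6.91 ± 0.64), then FL-derived (8.28 ± 0.48) and YS-derived (9.33 ± 0.54), and at 10.25 ± 0.20 in AM-derived cells, beside 10.43 and 9.86 in the untransferred groups. Napsa was low in YS-derived cells (5.27 ± 0.46) and at 7.29 or above elsewhere. Mbnl3, a splicing regulator, was low in YS-derived cells alone (4.63 ± 0.37, against 7.29 to 7.64 in all other groups), and its call was reversed in sign and lost without that group. Mbnl3 also lost its call with either untransferred group as the only reference. Rps4l was lowest in BM-derived cells (6.57 ± 0.33). C2 was highest in YS-derived cells (6.06 ± 0.58) and under the table median in both untransferred groups. All the genes of this paragraph lost their calls with group means as units.

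**Figure D5:**
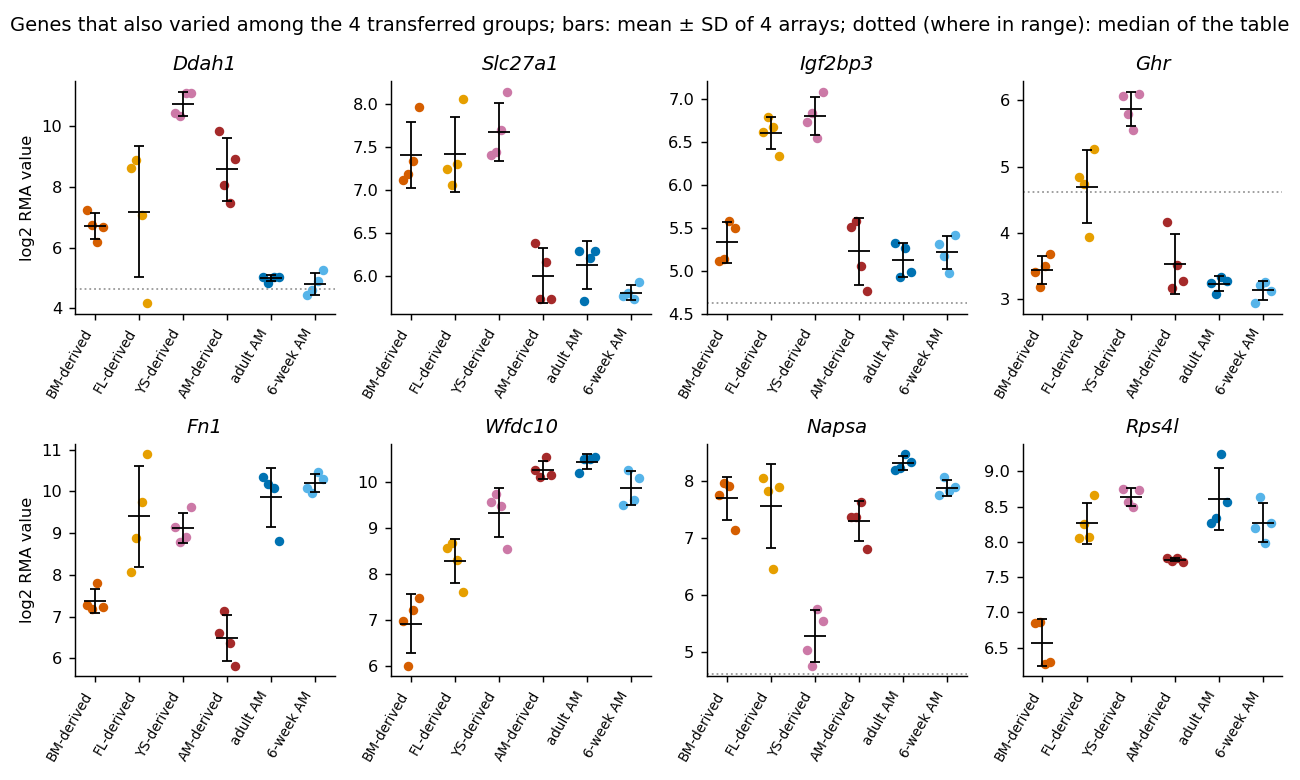
Values of 8 called genes that also varied among the 4 transferred groups, in each array (y axes, log2 RMA value); bars are means ± SD of 4 arrays, and the dotted line, where in range, is the table median. Ddah1 is highest in YS-derived cells, Slc27a1 is near the untransferred level in AM-derived cells, and Igf2bp3 and Ghr are raised in FL- and YS-derived cells.

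The donor populations before transfer gave a last view of these genes. Of the 26 separated higher genes 7 had means under the table median in bone marrow monocytes, fetal liver monocytes and yolk sac macrophages alike (26.9%, beside 5.37% of all genes tested and 18.2% of the 198 higher genes). The filter on low values admits such genes only through the macrophage groups, so the share carries no test. Awat1 stood at 4.2 in all 3 donor populations, Mmp12 at 4.3 to 4.7, Scd1 at 3.7 to 3.9, Ch25h at 3.4 to 4.3 and Pdk4 at 3.2 to 3.8, so these genes were higher in the transferred macrophages than in both the donor cells and the untransferred macrophages. Msr1 went the other way for some origins: it stood at 9.5 in bone marrow monocytes and 9.3 in yolk sac macrophages, above the 8.76 ± 0.32 and 8.71 ± 0.20 of their descendants. Igf1 was at 8.8 in yolk sac macrophages and at 4.3 to 4.4 in the monocytes, while BM-, FL- and YS-derived cells had means of 7.99, 7.97 and 8.55.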

How the data were processed

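RNA of sorted cells was amplified and hybridised to whole-transcript mouse arrays. The authors deposited log2 values for 35556 probe sets; the submitters' processing notes name RMA and give no version. A shift shared by most genes is removed by RMA. Probe sets with 1 gene symbol in the platform annotation (21789) were used, with symbols updated through RefSeq (21698 matched). Where a gene had several, the probe set with the highest mean was kept. Genes above the table median in at least 4 arrays were tested (12244). limma 3.58.1 (lmFit and eBayes, run under R 4.3.3) estimated 1 mean for each of the 9 groups from the 36 arrays together, with Benjamini-Hochberg adjustment within a contrast. On simulated data of the comparison with 12244 genes, 86.8% of genes changed by 0.5, 98.5% by 1 and 100% by 2 on the log2 scale were recovered, with 8 false calls (4.04%). In the simulation, groups differed only by the change set for transfer, and arrays varied independently within groups. Its shares therefore do not cover spread between groups, which the real data hold. P-values measure the spread between samples, which may be partly technical, and the number of arrays limits precision.

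The gene lists (33 lists, 993 entries) and the members were chosen with earlier results of these data known. Named genes are the panel of identity genes checked first, up to 15 separated genes per direction with the largest difference, up to 4 called genes per list and 5 called genes with the lowest F-test p, without predicted genes. Besides these, AA467197, Ddah1, Emb, Akr1b8, Anpep, Plpp3, Pla2g2d, Epas1, Rtp4, Dhx58, Timp2, Bex3 and uncalled list members quoted were chosen after their values were seen. Motifs were searched with exact letters in RefSeq promoters of GRCm38.p6. Alternatives covered the arrays fitted, filter, scaling, reference group, transferred groups, replicate number, prior, probe sets, 2-fold limit, group means as units and each array left out.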

Additional observations from a re-analysis of the deposited data

Results flagged for a closer look

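The level of 22 named genes differed among the 4 transferred groups by the F-test, so their difference from untransferred cells depended on the origin of the cells. Among genes described above the adjusted p was 0.0276 for Awat1, 0.03 for Msr1, 0.0431 for Lpcat2, 0.0271 for Mlph, 0.0209 for Syngr1, 0.034 for Cyp4f18, 0.000884 for Adgrl3, 1.44e-06 for Slc27a1 and 2.65e-05 for Ddah1. It was 7.42e-06 for Fn1, 2.47e-07 for C2, 5.59e-09 for Rps4l, 3.01e-08 for Napsa, 0.0175 for Epcam, 1.31e-09 for Ghr, 2.29e-09 for Wfdc10, 3.23e-09 for Mbnl3 and 5.11e-09 for Igf2bp3. Fcgr2b was lowest in YS-derived cells (6.96 ± 0.28 SD, n = 4; adjusted p = 2.97e-05), as its other transferred means were 7.76 to 8.11. Pla2g2d, a secreted phospholipase, was highest in BM-derived cells (7.41 ± 0.61; adjusted p = 0.0116) and under or just above the table median in the untransferred groups. A pair of identity genes outside the 346 varied as well: Fabp4 ran from 9.55 ± 0.46 in FL-derived to 10.68 ± 0.12 in YS-derived cells (adjusted p = 0.0105), and Marco from 8.68 ± 0.07 in BM-derived to 9.66 ± 0.34 in AM-derived cells (adjusted p = 0.0106).

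Single arrays stood apart from the other 3 of their group in 25 of 534 sets of values (4.68%, where chance gives about 5%). The gap to the nearest array, as a share of the group's range, is given for each. In BM-derived replicate 2, Msr1 (0.922), Abcg2 (0.831) and Ctsk (0.841) were low. BM-derived replicate 3 was high for Fn1 (0.845), replicate 4 for Hpgds (0.842) and replicate 1 for C2 (0.982). In FL-derived replicate 4, Siglecf (0.871) and Pdk4 (0.909) were low; Pdk4 was 5.32 there and 6.78 to 6.93 in the other FL-derived arrays. FL-derived replicate 3 was low for Napsa (0.857), and replicate 2 high for Igf1 (0.900). YS-derived replicate 3 was high for Abcg2 (0.987) and low for St8sia4 (0.905) and Timp2 (0.846), replicate 1 low for Mlph (0.874) and replicate 4 high for Igf1 (0.888). AM-derived replicate 2 was high for Epcam (0.878).

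Among untransferred arrays, adult replicate 4, which also stands apart on the first component, was low for Fn1 (0.831; 8.81 beside 10.09 to 10.35) and high for Ear6 (0.972). Adult replicate 2 was low for Fam20c (0.853) and Slc27a1 (0.857), and replicate 1 low for Wfdc10 (0.850). In the 6-week group replicate 2 was high for Mfge8 (0.841) and low for Plin1 (0.906), and replicate 1 was low for Lpcat2 (0.832) and high for Pla2g2d (0.835).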

How the results depend on the processing

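The 4 main counts (346 called, 198 higher, 148 lower, 37 separated) stayed within 1.5 times of these values under other filters, scalings, priors, probe sets and fits of the 24 arrays alone. With the 6 group means as units the counts were 75 called, 52 higher and 23 lower, and with at least 2-fold changes 81, 56 and 25, with 19 separated. Using only the 6-week group as reference gave 212 called, 77 lower and 64 separated; using only the adult group gave 204 called, 101 higher and 60 separated. Without the AM-derived group 56 genes were separated. Between the untransferred groups 1 gene rather than 2 was called in the fit of 24 arrays, and 1 without adult replicate 4 and AM-derived replicate 4, which also left 47 of 86 calls between AM-derived and adult cells; that alternative was chosen after seeing the data. Mbnl3 turned to 0.019 (adjusted p = 0.995, against 0.012 with all groups) without the YS-derived group.

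Leaving out 1 array at a time gave 294 to 366 called, 164 to 215 higher, 125 to 165 lower, 37 to 46 separated, 123 to 159 in the F-test, 1 to 5 between the untransferred groups, 61 to 94 for AM-derived against adult cells and 150 to 243 for the other comparison. Among the genes named, such fits ended the calls of Tcf4, Csf3r, Dhx58 and Timp2 alone.

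Same-numbered samples of different groups were treated as unpaired, as the labels do not say whether they are linked. Of 60 such pairs 10 had deviations correlated above 0.1 (range -0.38 to 0.42, median 0.01). These values do not settle the question for single pairs of groups. With the replicate number as a block, 351 genes were called (199 higher, 152 lower, 37 separated), 153 in the F-test and 2, 89 and 232 in the other comparisons, in the order above. Dim probe sets limit what can be said of genes near the table median.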

Other observations

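Several called genes outside the lists were chosen after their values were seen. Akr1b8, an aldo-keto reductase that reduces reactive aldehydes, was 4.37-fold higher in transferred cells (2.13 ± 0.23, adjusted p = 5.21e-08). It ran from 5.66 to 8.68 (median 7.86) against 4.10 to 6.20 (median 5.77), and it lost its call with group means as units. YS-derived cells had the highest mean (8.40 ± 0.22 SD, n = 4) and AM-derived cells the lowest of the transferred groups (6.85 ± 1.20). Pla2g2d was at least 3.21-fold higher (1.75 ± 0.23, adjusted p = 2.85e-06), with 13 of 16 transferred arrays above every untransferred array. It too lost its call with group means as units. Timp2, an inhibitor of matrix proteases, was 1.64-fold lower (-0.71 ± 0.19, adjusted p = 0.0237), with BM-derived cells (8.05 ± 0.43) near the untransferred means of 8.17 and 7.62 and the other transferred groups lower, FL-derived cells at 6.83. Its call was lost in 6 of 17 settings, group means as units among them.

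Further separated genes, each with all 16 transferred arrays above all 8 untransferred arrays, were smaller in size. Chpt1, which makes phosphatidylcholine, was higher by 0.86. Mreg, a protein of organelle transport, was higher by 0.86, and Pknox2, a homeobox gene, by 0.89. Tspan4, a tetraspanin, differed by 0.80, Zranb3, a DNA repair enzyme, by 0.79, and Scly, a selenocysteine lyase, by 0.78. Ptgr1, a reductase of prostaglandins and leukotrienes, differed by 0.71 and Rgs3, a regulator of G proteins, by 0.58. With group means as units Zranb3 (adjusted p = 0.0593) and Scly (adjusted p = 0.336) lost their calls.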
